A study of Mus musculus with 12 samples.

Results

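The cytosolic ribosome is built from ribosomal RNA and a set of ribosomal proteins, the Rps proteins of the small subunit, which reads the mRNA, and the Rpl and Rplp proteins of the large subunit, which joins the amino acids. Their genes are among the most strongly transcribed of any cell, their mRNAs are short, and most begin with a terminal oligopyrimidine (TOP) tract, a C followed by a run of C and T at the cap, through which LARP1 and the kinase mTOR hold back or release their translation. CD8+ T cells enlarge and divide after activation, and new ribosomes are part of that growth.

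The genes were chosen by symbol, as protein-coding genes named Rpl or Rps followed by a number, or Rplp, with Rpsa included and with the Rps6k kinases, Gm names and pseudogenes left out, and by a total of at least 120 counts over all 12 libraries. Of 55536 annotated genes, 84 met this rule. By symbol, 33 were counted to the small subunit and 50 to the large subunit. Rpl7l1, which encodes a protein that acts in ribosome assembly, is among the 50. The remaining gene was Rps19bp1, which encodes a protein that binds RPS19 and is no part of the ribosome. The lowest total inside the rule was that of Rpl39l (401 counts), and Rpl3l (17 counts) and Rpl10l (0 counts) fell outside it. A further 7 genes with such symbols, Rps4l among them, were not annotated as protein-coding. The symbol rule misses some ribosomal proteins, and of these FAU (eS30) and RACK1 are described beside the others. All 84 genes passed the filter on low counts.

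The data were poly(A) RNA-seq of CD8+ T cells from OT-I mice, in which a transgene encodes a receptor for an ovalbumin peptide. In the Ag group (5 libraries), OT-I cells had been transferred into C57BL6/J mice that received the ovalbumin peptide with a control IgG. In the Ag+Costim group (5 libraries), the recipients received the peptide with agonist antibodies against OX40 and 41BB, and cells of both groups were sorted from spleen and lymph nodes, after 4 days according to the labels. The study describes sorting the transferred cells by CD45.1 and the chains of their receptor. The Naive group (2 libraries) held CD8+ T cells purified from OT-I mice without any transfer. The labels do not say which libraries came from separate animals, so p-values measure the spread between these libraries. The question was which transcripts differ when costimulation is added to antigen, and how each state differs from Naive cells.

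A library held 23976932 to 49258758 gene counts, and Ag 4 was the shallowest. Summed T cell markers (Cd3d, Cd3e, Cd3g, Cd8a and Cd8b1) reached 6189 to 7983 CPM in Ag, 6284 to 6802 CPM in Naive and 3155 to 4296 CPM in Ag+Costim, and Cd4 stayed at or below 2.39 CPM. The 6 erythroid markers, of which none was at 0 in any group, summed to 588 to 6726 CPM in Ag, to 14.0 to 211 CPM in Ag+Costim and 168 to 2314 CPM in Naive, with the highest Ag sums in Ag 4 (6726 CPM) and Ag 2 (2649 CPM). The 4 B cell markers summed to 101 to 154 CPM in Ag, to 21.7 to 54.8 CPM in Ag+Costim and 30.6 to 33.2 CPM in Naive, and none of them was at 0 in any group. Platelet markers summed to at most 10.3 CPM and NK cell markers to at most 15.3 CPM in any library, myeloid markers to 25.7 to 174 CPM and plasma cell markers to 1.21 to 74.1 CPM. The part of these markers in the results was not tested, except that values without both erythroid-rich Ag libraries are given below.

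The region around the start site shows the TOP tract and the relation of Rps27 to its copies, since Rps27 and its retrogene had the largest falls. For 64 of the 84 genes a promoter entry was found in RefSeq (GRCm38.p6, the same assembly as mm10), covering 250 bases before to 50 bases after the start. Each line below holds 30 bases, the last 10 before the start and the first 20 from it, and capitals mark the longest run that begins with a C within 10 bases of the start and goes on with at least 4 C or T. Rps27 lies on the minus strand (chr3:90213629-90213658), Rps27rt, a retrogene of it, also on the minus strand (chr9:114982720-114982749), and Rps27l, which encodes a second form of the protein, on the plus strand (chr9:66946076-66946105). Rpl35 (chr2:39005112-39005141), Rps18 (chr17:33955646-33955675) and Rps6 (chr4:86857348-86857377), all on the minus strand, are shown as members with long tracts that were lower in Ag+Costim.
Rps27: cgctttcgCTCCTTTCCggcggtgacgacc
Rps27rt: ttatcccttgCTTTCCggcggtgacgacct
Rps27l: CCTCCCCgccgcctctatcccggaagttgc
Rpl35: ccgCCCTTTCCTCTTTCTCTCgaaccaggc
Rps18: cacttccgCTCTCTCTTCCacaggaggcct
Rps6: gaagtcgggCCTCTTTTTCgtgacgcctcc

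Rps27 and Rps27rt shared an unbroken run of 38 bases that starts at base 2 of Rps27 and base 1 of Rps27rt, while the longest run common to the sequences before their starts was 10 bases, so the copy is of the transcribed part. The run marked in Rps27l begins at -10 and holds 7 bases, so it ends before the start shown and is not at the cap. Its second RefSeq start has no such run. A tract by this rule, which need not lie at the cap, was found in 38 of the 64 members (59.4%) and in 34.4% of all 27025 genes with an entry. The ETS-type word CCGGAAG, on either strand, was found in 26 members (40.6%) and 9.93% of all genes. The YY1-type word ATGGCG, on either strand, was found in 20 members (31.2%) and 10.2% of all genes, and the TATA word TATAAA, on either strand, in 7 members (10.9%) and 15.7% of all genes. Matches of different words were counted separately also where they overlap. The 38 members with a tract had a median log2 fold change of -0.41 in Ag+Costim against Ag, with 21 called lower, and the 26 without one had a median of -0.27, with 13 called lower and 1 higher, as a description without a test.

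The mean share of ribosomal protein transcripts was smaller in Ag+Costim than in Ag, by more than the SD of either group. The 84 genes together held 3.75%, 3.14%, 4.13%, 4.49% and 3.42% of all gene counts in Ag 1 to Ag 5. They held 3.20%, 2.60%, 2.75%, 2.71% and 2.79% in Ag+Costim 1 to 5, and 3.96% and 3.55% in the Naive libraries. The groups overlapped in 1 library, since Ag+Costim 1 lay above Ag 2, and the highest share was that of Ag 4, the shallowest library and the one with the most erythroid RNA. The mean of the Ag libraries was 3.78% ± 0.540 (SD, n = 5). Ag+Costim had a mean of 2.81% ± 0.227 (SD, n = 5), and Naive had one of 3.75% ± 0.295 (SD, n = 2). The large subunit genes held a mean share of 2.20% in Ag and 1.64% in Ag+Costim, and the small subunit genes 1.58% and 1.17%. A share of counts in bulk RNA cannot tell fewer cells of a type from less RNA per cell.

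**Figure D1:**
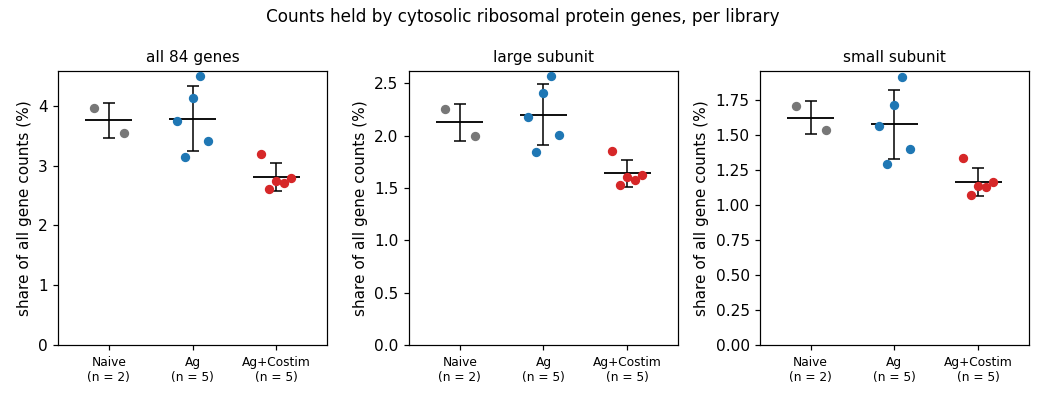
Share of all gene counts (%) held by the 84 ribosomal protein genes, the large subunit genes and the small subunit genes, with 1 point per library, the mean as a line and the SD as error bars. The Ag+Costim libraries lie between 2.60% and 3.20% for all 84 genes, and the Ag libraries between 3.14% and 4.49%.

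In the fit over all genes, 45 of the 84 genes were called lower and 1 higher in Ag+Costim than in Ag (edgeR's quasi-likelihood test, adjusted p below 0.05), against 26.5% of all 18817 genes tested called lower and 26.6% called higher. The median log2 fold change was -0.33 over the 84 genes and -0.05 over all genes tested, and 73 of the 84 values were negative. Both subunits took part, with 19 of 33 small subunit genes and 26 of 50 large subunit genes lower, and medians of -0.34 and -0.31. Without paralogs such as Rpl7l1 and without Rps19bp1, 44 of 77 genes were lower and 0 higher. In 25 of the 84 genes every Ag+Costim library lay below every Ag library, which held for 18.5% of all genes tested, and in 0 of them every Ag+Costim library lay above, which held for 21.3%. Without Ag 2 and Ag 4, the erythroid-rich Ag libraries, 48 genes were called lower and 1 higher, and all 45 lower calls were among the 48.

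The counts of calls changed with a correction for transcript length. The count-weighted transcript length of the 84 genes had a median of 784.5 bases, against 2250 bases over all genes tested, and over all genes the log2 fold change rose with length (Spearman's rho 0.26 across genes, which are not independent replicates), while over the 84 genes alone rho was 0.19. With a correction for length in each library, the members' median was -0.0077, and 21 of the 84 were called lower and 13 higher. Over all genes, 25.7% were called lower and 26.4% higher in that fit. All 21 lower calls were among the 45 of the main fit. With upper-quartile scaling, 66 were lower and 0 higher. There the median of all genes moved to -0.24 with 4056 genes called higher and 6338 lower, against 5006 and 4979 with TMM. The members lay 0.28 below the median of all genes under both scalings, but a change of scaling moves all genes nearly alike and can hardly alter this gap. With the correction for length, the members lay 0.03 above the median of all genes, which was -0.037.

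**Figure D2:**
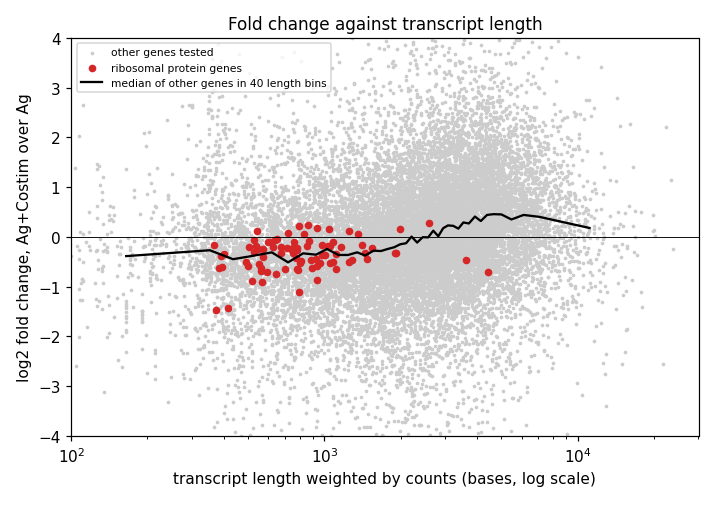
Log2 fold change in Ag+Costim over Ag (y axis) against the count-weighted transcript length in bases (x axis, log scale), with the ribosomal protein genes in red, the other genes tested in grey and the median of the other genes by length bin as a line, and with genes beyond the axis limits not drawn. Most ribosomal protein genes are short, with a median of 784.5 bases, and lie on the left where the line is below 0.

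Rps27 and its retrogene fell furthest. Rps27 encodes eS27, a zinc finger protein of the small subunit. It stood at 526, 435, 710, 596 and 599 CPM in Ag 1 to 5. In Ag+Costim 1 to 5 it stood at 232, 162, 194, 268 and 211 CPM, and in Naive at 800 and 715 CPM. Every Ag+Costim library was thus below every Ag library, and every Ag library below both Naive libraries. The log2 fold change in Ag+Costim against Ag was -1.43 ± 0.15 (SE, adjusted p = 2.66e-06 by edgeR's quasi-likelihood test), and against Naive it was -1.83 ± 0.18 (adjusted p = 2.34e-06). Between Ag and Naive it was -0.40 ± 0.19 and was not called (adjusted p = 0.0940).

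The retrogene Rps27rt followed Rps27 at a much lower level, with 21.8 to 37.1 CPM in Ag, with 7.69 to 14.3 CPM in Ag+Costim and 38.0 and 42.5 CPM in Naive. Its log2 fold change in Ag+Costim against Ag was -1.47 ± 0.17 (adjusted p = 7.56e-06, edgeR's quasi-likelihood test). The log2 ratio of Rps27rt to Rps27 counts was -4.26 ± 0.05 (SD, n = 5) in Ag, -4.31 ± 0.12 in Ag+Costim and -4.23 ± 0.0011 in Naive (SD, n = 2), and the difference between Ag+Costim and Ag was -0.05 (exact permutation test over libraries, two-sided, p = 0.437, adjusted p = 0.509). Reads of near-identical copies cannot be placed with certainty, so the count of Rps27rt may hold reads of Rps27.

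Rps27l, which encodes the second form of eS27 and is known as a target of p53, had another pattern. It stood at 82.1 and 78.0 CPM in Naive, at 224, 157, 251, 225 and 169 CPM in Ag 1 to 5, and at 255, 209, 235, 184 and 231 CPM in Ag+Costim 1 to 5. Both groups given antigen lay above the Naive libraries and overlapped each other. The log2 fold change was 1.36 ± 0.19 in Ag against Naive (adjusted p = 6.39e-05) and 1.48 ± 0.19 in Ag+Costim against Naive (adjusted p = 2.58e-05), and it was 0.12 ± 0.13 in Ag+Costim against Ag (adjusted p = 0.475, edgeR's quasi-likelihood test).

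**Figure D3:**
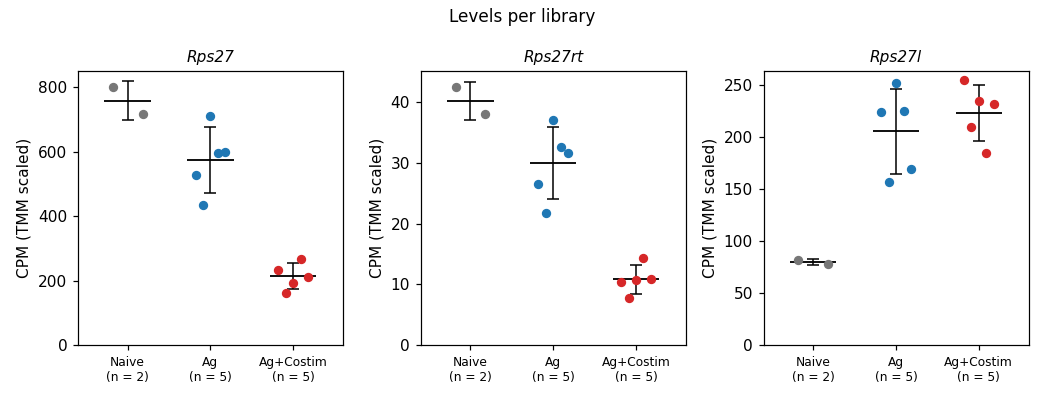
CPM (TMM scaled) of Rps27, its retrogene Rps27rt and its paralog Rps27l in each library, with the mean as a line and the SD as error bars. Rps27 falls from 715 to 800 CPM in Naive to 162 to 268 CPM in Ag+Costim, while Rps27l is at 78.0 and 82.1 CPM in Naive and at or above 157 CPM in every library given antigen.

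Since the genes of this pair moved differently, their ratio within a library changed in each step. The log2 ratio of Rps27l to Rps27 counts was -3.28 and -3.20 in Naive. It was -1.23, -1.48, -1.50, -1.41 and -1.83 in Ag 1 to 5, and 0.14, 0.36, 0.28, -0.54 and 0.13 in Ag+Costim 1 to 5. On the linear scale, Rps27l had 0.28 to 0.43 counts per count of Rps27 in Ag, 0.69 to 1.29 in Ag+Costim and 0.10 and 0.11 in Naive. No groups overlapped. On FPKM, which sets the levels of different genes side by side per length, the ratio was 0.84, 1.03, 0.91, 0.53 and 0.80 in Ag+Costim 1 to 5, 0.21 to 0.32 in Ag and 0.078 and 0.083 in Naive, so Rps27l exceeded Rps27 per length in 1 of 5 Ag+Costim libraries. The difference of the log2 ratio of counts between Ag+Costim and Ag was 1.56 (exact permutation test over libraries, two-sided, p = 0.00794, the smallest that 5 against 5 libraries allow; adjusted p = 0.0185 over 7 pairs), and with FPKM in place of counts it was 1.60. The Naive means, 1.75 below Ag and 3.31 below Ag+Costim, were not tested.

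Other paralog pairs moved less. Rpl36al and Rpl36a encode nearly the same large subunit protein, eL42, and their log2 ratio was 0.30 ± 0.02 (SD, n = 2) in Naive, 0.67 ± 0.08 (SD, n = 5) in Ag and 0.95 ± 0.09 (SD, n = 5) in Ag+Costim. The difference of 0.28 between Ag+Costim and Ag had no overlap of libraries (exact permutation test, p = 0.00794, adjusted p = 0.0185). Pseudogenes named after Rpl36a had 43984 counts of their own beside 62147 of Rpl36a over all libraries, so reads of this gene could have been split between copies. Rpl22l1 and Rpl22 encode forms of eL22, of which RPL22 is known to be needed for alpha-beta T cell development, and their log2 ratio was -0.36 ± 0.12 in Ag and 0.04 ± 0.08 in Ag+Costim (SD, n = 5 each), a difference of 0.40 (exact permutation test, p = 0.00794, adjusted p = 0.0185). The Naive libraries, at -0.12 and 0.11, lay near Ag+Costim. On FPKM, which divides each transcript by its length, the difference was 0.057 and was not called (exact permutation p = 0.794).

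Rpl7l1, which encodes a relative of uL30 that acts in ribosome assembly, rose relative to Rpl7. Their log2 ratio was -1.64 ± 0.33 in Ag, -1.16 ± 0.12 in Ag+Costim (SD, n = 5 each) and -1.44 ± 0.06 (SD, n = 2) in Naive. The difference of 0.48 had an adjusted p of 0.0417 (exact permutation test, p = 0.0238), with overlap at Ag 2, and was not called after leaving out any one Ag+Costim library (0.45 to 0.52), nor on FPKM (0.48). Rpl7l1 was also the 1 member called higher, with 132 to 184 CPM in Ag and 184 to 225 CPM in Ag+Costim, a log2 fold change of 0.28 ± 0.10 (adjusted p = 0.0262, edgeR's quasi-likelihood test), which was not called with the correction for length (0.22, adjusted p = 0.0584), and no member was called higher without Ag+Costim 1, 3 or 5. Rpl39l and Rps4l were at low levels, with 0.337 to 1.52 CPM for Rpl39l in all libraries and mean levels of 2.69 to 3.36 CPM for Rps4l, and neither ratio to Rpl39 or Rps4x was called (differences of -0.01 and 0.48, exact permutation p of 0.992 and 0.103). The pairs with Rpl3l and Rpl10l had too few counts to be tested, so 7 of 9 pairs were.

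**Figure D4:**
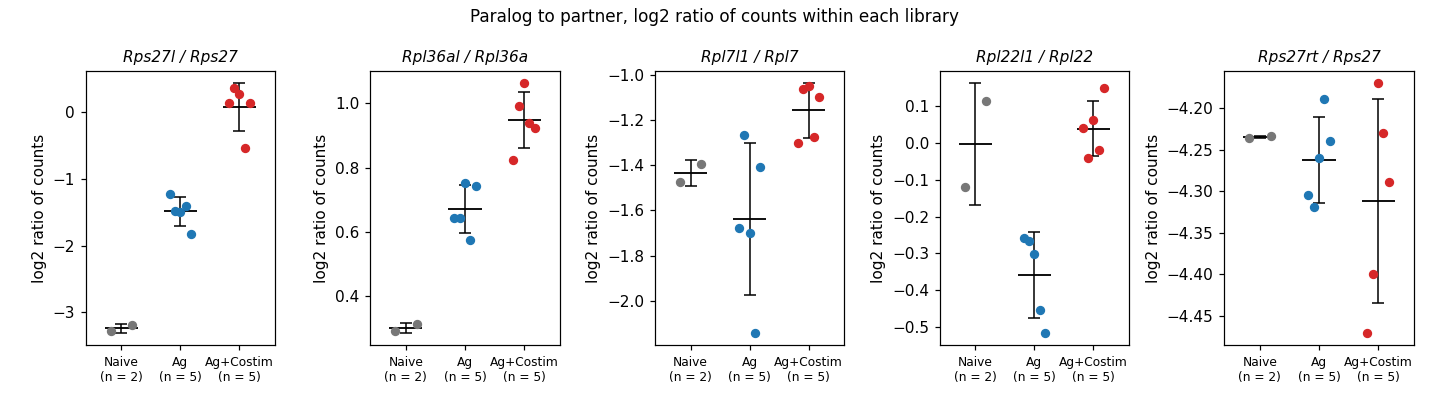
Log2 ratio of the counts of a paralog to those of its partner within each library, with the mean as a line and the SD as error bars. The ratio of Rps27l to Rps27 climbs from -3.28 and -3.20 in Naive to -1.83 to -1.23 in Ag and -0.54 to 0.36 in Ag+Costim, while that of Rps27rt to Rps27 stays between -4.47 and -4.17.

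Rpl37a, Rpl32 and Rpl35 were among the large subunit genes with the largest falls in Ag+Costim against Ag. Rpl37a encodes eL43, a zinc-binding protein, and stood at 243 to 471 CPM in Ag and 159 to 213 CPM in Ag+Costim. Its log2 fold change was -0.91 ± 0.16 (adjusted p = 0.000243, edgeR's quasi-likelihood test). Rpl32, which encodes eL32, stood at 879 to 1324 CPM in Ag, at 514 to 661 CPM in Ag+Costim and 761 and 878 CPM in Naive. Its log2 fold change was -0.88 ± 0.11 against Ag (adjusted p = 2.25e-05, edgeR's quasi-likelihood test). Rpl35, whose protein uL29 sits at the rim of the exit tunnel, stood at 583 to 891 CPM in Ag, at 355 to 440 CPM in Ag+Costim and 509 and 581 CPM in Naive. Its log2 fold change was -0.86 ± 0.11 (adjusted p = 1.32e-05, edgeR's quasi-likelihood test), and in all of these the Ag+Costim and Ag libraries did not overlap. With the correction for length, Rps27, Rps27rt, Rpl35, Rpl37a and Rpl32 stayed lower, at -1.05, -1.09, -0.58, -0.55 and -0.52. The lowest value under that correction was that of Rps15a, at -1.14 against -0.71 without it. Its count-weighted length was 4425 bases, the longest among the members, and depends on how counts were split between its transcripts. This gene was singled out after its value was seen.

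Toward the other end of the range, Rpl10 (0.22), Rpl7a (0.17) and Rps2 (0.16) had positive log2 fold changes in Ag+Costim against Ag that were not called (adjusted p of 0.0867, 0.237 and 0.190, edgeR's quasi-likelihood test). Corrected for length, all 3 were called higher, at 0.52 (adjusted p = 6.5e-05), 0.46 (adjusted p = 0.00175) and 0.43 (adjusted p = 0.000434). Rps2 encodes uS5 at the mRNA entry channel, and Rpl10 encodes uL16, which joins the large subunit late in its assembly. The interquartile range of the 84 log2 fold changes ran from -0.54 to -0.17 and the standard errors from 0.08 to 0.55, the highest being that of the barely detected Rpl39l.

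**Figure D5:**
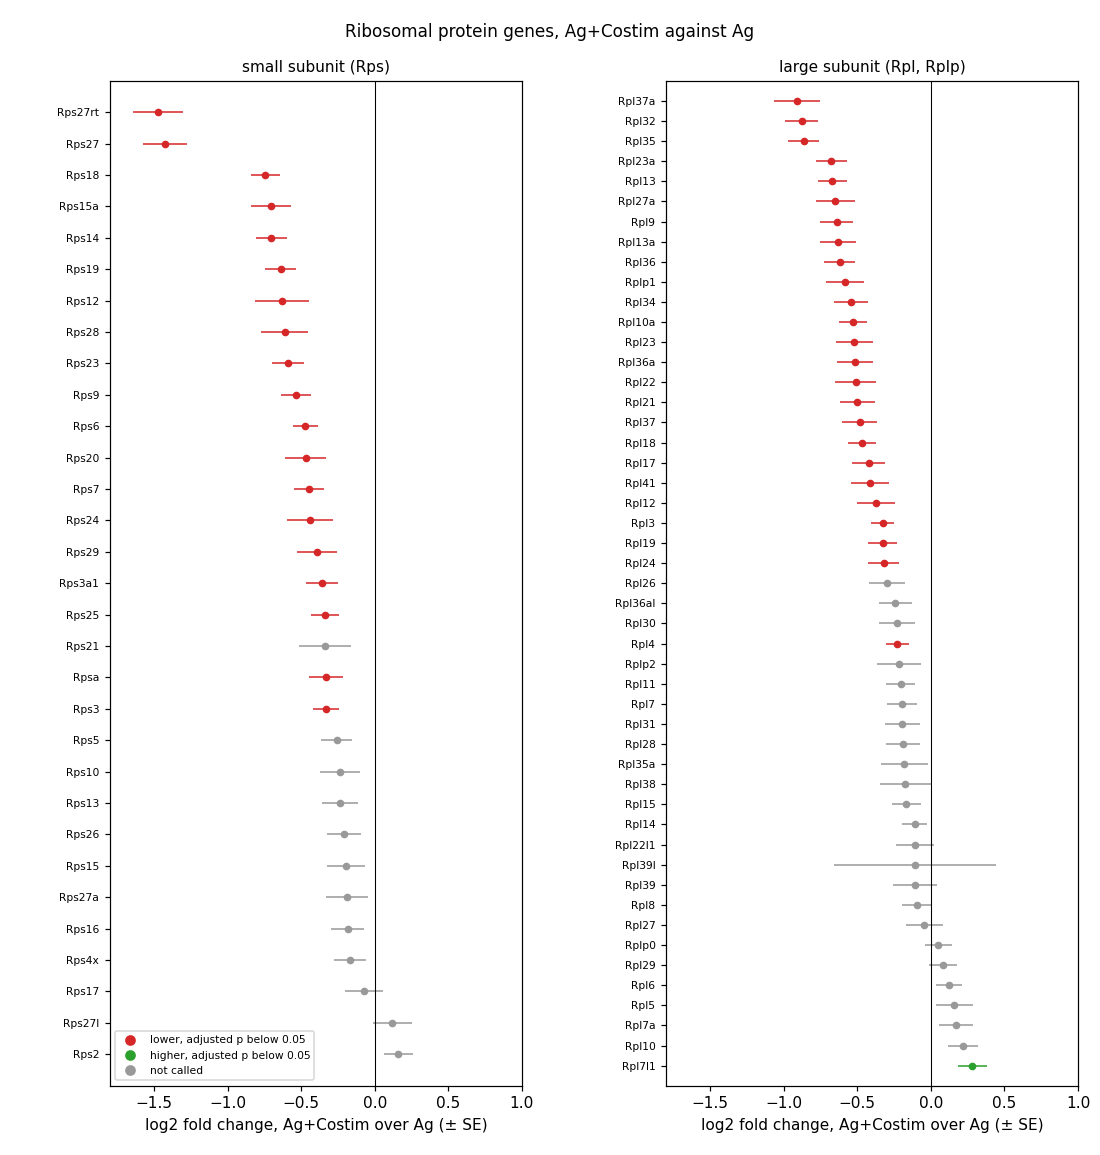
Log2 fold change in Ag+Costim over Ag (x axis) with its SE for small subunit and large subunit genes (y axis, a few members not drawn), ordered by value and coloured by the call at an adjusted p below 0.05. Rps27rt (-1.47) and Rps27 (-1.43) lie apart from the other small subunit genes, and Rpl7l1 (0.28) is the only gene called higher.

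By site on the ribosome, the 3 genes of the P stalk, which recruits elongation factors, were split. Rplp1 fell, since it stood at 405 to 631 CPM in Ag and at 295 to 402 CPM in Ag+Costim, with a log2 fold change of -0.58 ± 0.13 (adjusted p = 0.00169, edgeR's quasi-likelihood test). Rplp0, the base of the stalk, was at 1189 to 1490 CPM in Ag and 1218 to 1548 CPM in Ag+Costim, with a log2 fold change of 0.05 ± 0.09 (adjusted p = 0.668), and Rplp2 had -0.22 ± 0.15 (adjusted p = 0.246). Rplp0 was higher in both groups given antigen than in Naive (989 and 1115 CPM), by 0.35 in Ag (adjusted p = 0.0292) and 0.40 in Ag+Costim (adjusted p = 0.0134). With the correction for length, Rplp0 was called higher in Ag+Costim than in Ag (0.30, adjusted p = 0.00844), and the call of Rplp1 was lost (-0.21, adjusted p = 0.0680).

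Rpl5 and Rpl11, whose proteins carry the 5S ribosomal RNA and can bind MDM2, were not called in any of the 3 comparisons, with log2 fold changes of 0.16 and -0.21 in Ag+Costim against Ag. Of the 8 genes at the exit tunnel, 5 were lower and 0 higher, from Rpl35 (-0.86) to Rpl39 (-0.11, not called). This compares with 26.5% of all genes and 45 of the 84 members lower, and their median of -0.31 lay near the members' -0.33. Corrected for length, Rpl35 (-0.58) and Rpl23a (-0.32) stayed lower, and Rpl4 (0.012), Rpl17 (-0.12) and Rpl19 (-0.016) were not called. Of the 5 genes at the mRNA exit, 3 were lower, from Rps14 (-0.70, adjusted p = 7.69e-05) to Rps26 (-0.21, not called). Their median of -0.34 also lay near that of the members, and the same shares apply. After correction for length, Rps14 stayed lower (-0.36), and Rps28 (-0.22) and Rps25 (-0.07) were not called. Rpsa, also known as the laminin receptor, fell by 0.33 (adjusted p = 0.0272), Rps3, which lines the mRNA entry and has a repair role outside the ribosome, fell by 0.33 (adjusted p = 0.00627), and Rps6, the target of the S6 kinases, fell by 0.47 (adjusted p = 0.000472) on the log2 scale. Rpl13a, which represses inflammatory mRNAs when released from the ribosome, fell by 0.63 (adjusted p = 0.000615, edgeR's quasi-likelihood test). With the correction for length, Rpsa (-0.19, adjusted p = 0.228) and Rps3 (-0.18, adjusted p = 0.0889) were not called, and Rps6 (-0.19, adjusted p = 0.0357) and Rpl13a (-0.35, adjusted p = 0.0117) stayed lower.

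Of the ribosomal proteins that the symbol rule misses, Fau, whose protein is made as a fusion with a ubiquitin-like protein, was lower in Ag+Costim than in Ag, at -0.38 ± 0.10 (adjusted p = 0.00707, edgeR's quasi-likelihood test), but not with the correction for length (-0.034). Rack1, a scaffold on the small subunit, had 0.04 (adjusted p = 0.753), and Rps27a, whose protein is made as a fusion with ubiquitin, had -0.19 (adjusted p = 0.295). Rps19bp1 was at 23.5 to 33.7 CPM in all libraries and was not called in any comparison (0.05 in Ag+Costim against Ag).

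The share of the 84 genes called higher in Ag than in Naive was below that of all genes, in a comparison that shares the Ag libraries with the one above. In Ag against Naive, 17 of the 84 genes were called higher and 0 lower (edgeR's quasi-likelihood test; 23 had an unadjusted p below 0.05, and DESeq2 called 21 higher and 0 lower), against 24.2% of all genes higher and 22.5% lower. The members' median was 0.21, and that of all genes 0.02. Every Ag library lay above both Naive libraries in 18 of the 84 genes, against 27.2% of all genes, and below both in 2, Rps27 and Rps27rt, against 29.2%. After Rps27l (1.36), the largest called rises were those of Rpl24 (0.69 ± 0.15, adjusted p = 0.00165), Rpl36al (0.61 ± 0.15, adjusted p = 0.00493) and Rps13 (0.56 ± 0.17, adjusted p = 0.0142). Rpl24, which encodes eL24 at the subunit interface, stood at 172 and 194 CPM in Naive and at 236 to 357 CPM in Ag.

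This count rested on the 2 Naive libraries and on Ag 2. It was 10 without Naive 1, 3 without Naive 2 and 29 without Ag 2. With the correction for length, 6 genes were higher and 9 lower, with a median of -0.066, and on log2(FPKM + 1), 7 were higher and 4 lower. The lowest values were those of Rps27rt (-0.43) and Rps27 (-0.40), followed by Rpl12 (-0.29), Rps24 (-0.24) and Rps19 (-0.23), and none of these was called.

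Against Naive, the Ag+Costim cells had genes on both sides. In this comparison, which shares its libraries with those above, 10 genes were called higher and 23 lower (edgeR's quasi-likelihood test), against 26.9% of all genes higher and 25.4% lower, with a median of -0.14 against -0.02 over all genes. Every Ag+Costim library lay below both Naive libraries in 29 of the 84 genes, against 34.2% of all genes, and above both in 17, against 31.7%. Rps27l (1.48), Rpl29 (0.62) and Rpl7l1 (0.56) had the largest called rises. Rpl29, which encodes eL29, stood at 90.1 and 100 CPM in Naive and 137 to 154 CPM in Ag+Costim. Rps27rt (-1.90), Rps27 (-1.83), Rps19 (-0.87) and Rps28 (-0.79) were among the largest falls. Rps19, whose loss causes Diamond-Blackfan anemia, stood at 1254 and 1107 CPM in Naive, 830 to 1193 CPM in Ag and 556 to 715 CPM in Ag+Costim. Without Naive 1 the counts were 6 higher and 8 lower, and without Naive 2 they were 2 higher and 16 lower.

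Levels between genes were compared as FPKM, which divides by length. Over all libraries the highest mean FPKM were those of Rpl13 (1797) and Rpl32 (1639). The lowest were those of Rpl39l (1.02), Rps19bp1 (32.1) and Rps27rt (64.0). Rpl13 fell from 2095 ± 237 FPKM in Ag to 1278 ± 88.1 FPKM in Ag+Costim (SD, n = 5 each), with 2349 ± 211 FPKM (SD, n = 2) in Naive, and its log2 fold change on counts was -0.67 ± 0.10 (adjusted p = 6.87e-05, edgeR's quasi-likelihood test), or -0.37 with the correction for length.

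Several members have annotated transcripts with a retained intron or a stop early in the message. The share of transcript counts not typed as protein-coding was compared in 73 members. In Ag+Costim against Ag, 3 were called higher and 3 lower (limma, adjusted p below 0.05), against 2.22% and 13.8% of the 8054 genes tested. Rps19 had 14.2%, 20.2%, 21.4%, 20.9% and 31.3% of its transcript counts in such transcripts in Ag 1 to 5. It had 9.38%, 11.1%, 11.4%, 13.4% and 9.30% in Ag+Costim 1 to 5, and 21.2% in each Naive library. The groups did not overlap, and the log2 ratio of non-coding to coding counts differed by -1.14 ± 0.25 (SE, adjusted p = 0.00926, limma).

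Rpl6 went the same way, with 2.91% to 6.38% in Ag and 2.02% to 2.31% in Ag+Costim (-0.90 ± 0.23, adjusted p = 0.0181, limma). Rpl35 had 0.876% to 3.32% in Ag and 2.03% to 11.8% in Ag+Costim, with overlap (1.81 ± 0.52, adjusted p = 0.0362, limma). Rpl39 had 0.0470% to 0.377% in Ag and 0.402% to 0.717% in Ag+Costim (2.35 ± 0.65, adjusted p = 0.0309, limma). These small shares rest on few non-coding counts, since Rpl39 had 4251 to 6505 gene counts in the Ag libraries. Rps28, the third gene called higher, had the smallest change (0.79 ± 0.24, adjusted p = 0.0423). The higher calls fell to 0 without Ag 2 or without Ag+Costim 1, 2 or 3 and to 1 without Ag 1, and the lower calls numbered 2 or 3 without any one library.

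A separate measure, Psi, gives the fraction of reads that include a segment (node) of a gene, with 1 pooled value for Ag and 1 for Ag+Costim and so without a replicate check. Of 497 nodes in 83 members, 29 in 16 members differed by more than 0.05 (5.84%), against 19.1% of all 115403 nodes. Of these 29, 21 were tandem ends, which mark alternative polyadenylation sites, 4 were retained introns and 4 were alternative donors, and 0 of 284 core exon nodes passed. The 4 retained introns past 0.05, of 16 such nodes in the members, had a higher Psi in Ag+Costim. They lay in Rps27a (0.194 to 0.308), Rpl30 (0.118 to 0.198), Rpl41 (0.197 to 0.269) and Rpl27 (0.178 to 0.239). The 4 alternative donors past 0.05, of 15, in Rpl29, Rpl15 and Rpl34, were also higher. The share past 0.05 among all nodes of these types was not counted. On transcript counts, which have replicates, retained introns alone were called higher in 2 and lower in 6 of 65 members (limma, adjusted p below 0.05). Over all 6227 genes tested in this way, 221 were called higher and 1126 lower.

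The largest difference was at the 3′ end of Rps3, in mm10 on the minus strand of chromosome 7. There the node of 412 bases at chr7:99477904-99478315 went from 0.874 to 0.623, and the last node of 8 bases, chr7:99477896-99477903, from 0.126 to 0.377. In Rpl22l1, on the plus strand of chromosome 3, the tandem end node at chr3:28807187-28807415 went from 0.112 in Ag to 0.00242 in Ag+Costim. A difference of more than 0.1 was found at 8 nodes of 5 members (1.61%), against 7.39% of all nodes, and one of more than 0.2 at the 2 nodes of Rps3 alone, against 2.82%.

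Genes that act on these mRNAs were described from lists, to be read against the 26.6% of all genes called higher and the 26.5% called lower in Ag+Costim against Ag. Of 14 genes that control the translation of TOP mRNAs, 8 rose and 3 fell in Ag+Costim against Ag, with a median log2 fold change of 0.47, from Larp4 (2.02, adjusted p = 4.95e-08) to Eif4ebp1 (-0.77, adjusted p = 0.00228, edgeR's quasi-likelihood test), which encodes a repressor of cap-dependent translation. Of 14 other TOP mRNAs, such as those of elongation factors, 8 were higher and 5 lower, from Hnrnpa1 (1.07) to Tpt1 (-0.60), with a median of 0.29. Of 8 chaperones of ribosomal proteins, 3 were higher and 3 lower, from Heatr3 (1.37, adjusted p = 9.77e-06), which helps import RPL5, to Pdcd2 (-0.82, adjusted p = 0.000152), which escorts RPS2.

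Of 7 factors that act at ribosomal protein promoters, 3 were higher and 1 lower, against 26.6% of all genes higher and 26.5% lower. Their values ran from Myc (0.89, adjusted p = 0.000121, edgeR's quasi-likelihood test) to Yy1 (-0.26, not called). Of 5 tested genes of ribosome stress and p53, 3 were higher and 0 lower, against the same shares of all genes. Cdkn1a had the highest value (2.15, adjusted p = 0.00142), at mean levels of 7.05 CPM in Ag+Costim, 1.62 CPM in Ag and 0.345 CPM in Naive, and Trp53 had 0.14 (not called). Summed Mki67 and Top2a, both on in dividing cells, stood at 788 to 1051 CPM in Ag+Costim, 141 to 357 CPM in Ag and 18.7 to 18.8 CPM in Naive, and their part in the values of the ribosomal protein genes was not tested.

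Placing of reads also limits single genes. For 16 of the 84 genes, the pseudogenes named after the gene had counts of their own that came to more than 20% of the size of the gene's count, and adding them to the members left the counts at 45 lower and 1 higher in Ag+Costim against Ag. Another gene overlapped 35 of the 84 genes on the same strand, often a small nucleolar RNA in an intron, and 24 on the other strand, where reads of a kit that does not mark strand cannot be told apart.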

How the data were processed

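Poly(A) RNA of 12 libraries (5 Ag, 5 Ag+Costim, 2 Naive) was prepared with SMART-Seq v4 and Nextera XT. Reads were aligned by the authors to mm10 with HISAT2 2.1.0, sorted with SAMtools 1.9 and quantified with StringTie 2.1.0, the versions given in the submitters' processing notes. The deposited gene and transcript tables hold estimated counts that StringTie derives from coverage. The deposited FPKM values divide these by transcript length and library depth and were summed per gene here. The deposited Psi values are a fraction of reads including a node, pooled by the authors to 1 value per group with Whippet. The authors' own comparison columns in that file (a Psi difference and its probability) were not used, and no column of another series was found.

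Counts were summed over the 55536 annotated entries of 81881 in the gene table. The whole table was fitted with edgeR 4.0.16 (TMM scaling, filterByExpr, robust quasi-likelihood test, 1 term per group over all 12 libraries) in R 4.3.3, and p-values were adjusted by Benjamini-Hochberg over all 18817 genes tested, with a threshold of 0.05. Levels are TMM-scaled CPM, and marker sums are CPM of total counts. Shares of non-coding transcripts were fitted as log2 ratios (0.5 counts added, at least 10 transcript counts) with limma 3.58.1, and log2(FPKM + 1) likewise. DESeq2 1.42.0 was an alternative. Ratios of paralogs were compared with exact permutation tests in scipy 1.17.1, for pairs with at least 10 counts in every library. The length correction was a lowess offset per library (span 0.3). Tables and figures were made with matplotlib 3.10.9, pandas 2.3.3 and numpy 2.4.6 under Python 3.11.15. A count of 3 in a library equals 0.0609 to 0.125 CPM.

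On counts simulated for Ag+Costim against Ag over 18817 genes, the fit recovered 42 of 50 genes raised and 37 of 50 lowered by 1 on the log2 scale, and 7 and 9 of 50 at 0.5, with 2 false calls. Far fewer genes were changed there than were called in the data (5006 higher and 4979 lower). The adjustment over all genes was thus stricter in the simulation, and its recovery is not that of the fit to the data. The limma fit recovered 180 of 200 changed genes of 8054, with 7 false calls.

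The members and lists were chosen with earlier results of these data known. Genes named were the 5 highest and 5 lowest members of each comparison, paralogs with their partners, members with known roles outside the ribosome, ribosomal proteins that the symbol rule misses, the 3 highest and 3 lowest by FPKM, the ends of each list, and members called for transcript shares. Some genes that this rule takes in are not reported here. Rps15a, Rps18 and the nodes described by Psi were chosen after their values were seen.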

Additional observations from a re-analysis of the deposited data

Results flagged for a closer look

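Of 110 groups of 5 libraries looked at, 6 held a library that stood apart from the other 4, by a gap of more than 0.71 of the range of the group. Chance gives this in about 1 in 20 groups, so 6 of 110 is near that rate. Rpl7l1 stood at 132 CPM in Ag 4 and at 176 to 184 CPM in the other Ag libraries, and Ag 4 was also the shallowest library and the one with the most erythroid RNA. In Ag+Costim 1, Rps24 stood at 286 CPM against 211 to 231 CPM in the others. In the same library, Rpl22 stood at 103 CPM against 80.4 to 82.1 CPM. Rplp2 stood there at 401 CPM against 302 to 326 CPM, and the share of all counts held by the 84 genes was also highest in this Ag+Costim library. The log2 ratio of Rps27l to Rps27 was -0.54 in Ag+Costim 4 and 0.13 to 0.36 in the other Ag+Costim libraries. The share of Rpl39 counts in non-coding transcripts was 0.377% in Ag 5 and 0.0470% to 0.0923% in the other Ag libraries.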

How the results depend on the processing

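In Ag+Costim against Ag, the 45 lower calls became 21 and the median -0.0077 with the correction for length. They were 39 to 54 without any one library, and 48 without Ag 2 and Ag 4, chosen after seeing the data. With the correction for length, 25.7% of all genes were called lower and 26.4% higher. The 1 higher call became 0 with upper-quartile scaling, 2 with the replicate block, 2 with a correction for GC content, 13 with that for length and 0 to 3 without any one library. In Ag against Naive, the 17 higher and 0 lower calls became 9 higher in a fit of the 2 groups alone, 27 higher without Ag 2 and Ag 4, 6 and 9 with the correction for length (median -0.066), 7 and 4 on log2(FPKM + 1) and on log2(FPKM + 0.1), and 6 and 1 without a filter on FPKM. Without any one library, they ran from 3 to 29 higher and 0 to 1 lower. With the correction for length, 25.1% of all genes were called higher and 17.0% lower in this comparison. In Ag+Costim against Naive, the 10 higher calls became 4 with upper-quartile scaling and 6 on FPKM with either pseudocount or no filter, and the 23 lower calls 36 with either pseudocount. Without any one library, they ran from 2 to 12 higher and 8 to 27 lower. Of the genes named by rule, some turned the sign of the log2 fold change with the correction for length. With a call in the main or the corrected fit, these were Rpl24 (0.0099) and Rpl22l1 (0.24) in Ag+Costim against Ag. In Ag against Naive, they were Rpl13 (-0.30) and Yy1 (0.52). Without a call in either fit, 10 more turned in Ag+Costim against Ag and 14 in Ag against Naive. Members outside that rule turned too, such as Rpl4 (-0.23 to 0.012) in Ag+Costim against Ag. The causes were not tested.

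Whether the replicate numbers pair the libraries could not be decided. Deviations of same-numbered libraries correlated at -0.06 to 0.10 and those of other pairs at -0.08 to 0.07. Among Ag and Ag+Costim libraries alone, same-numbered pairs were all positive, at 0.016 to 0.095, and other pairs ran from -0.08 to 0.07. The Naive values cannot show pairing, since the deviations of 2 libraries from their mean mirror each other. With the replicate block, the calls were 2 higher and 45 lower in Ag+Costim against Ag, 16 and 2 in Ag against Naive, and 10 and 26 in Ag+Costim against Naive, and for transcript shares 2 and 3. The share of counts in Naive was 4.06% of protein-coding counts. On FPKM, the ratio of Rpl22l1 to Rpl22 differed by 0.057 and that of Rpl7l1 to Rpl7 by 0.48. Without any one library, the ratio of Rpl7l1 to Rpl7 differed by 0.35 to 0.57 and that of Rpl39l to Rpl39 by -0.26 to 0.35. For transcript shares, 0 members were called in either direction of 15 tested for nonsense-mediated decay alone. Over all 2365 genes tested so, 7 were higher and 10 lower. For retained introns alone, 2 of 65 members were higher and 6 lower, against 221 and 1126 of all 6227 genes tested. Without any one library, 0 to 4 members were higher for the share of all non-coding transcripts. At a Psi difference of 0.1, 8 nodes passed.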
